A study of Mus musculus with 4 samples.

Results

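The genes described are 7 subunits of the GABA-A receptor: the alpha subunits Gabra2, Gabra3, Gabra4 and Gabra5, the gamma subunits Gabrg1 and Gabrg3, and the delta subunit Gabrd. They were taken by symbol from the 33696 genes of single-nucleus RNA-seq matrices of mouse cortex, and all 7 were found. The 4 libraries came from wildtype C57BL/6JRj females of about 12 weeks, 2 of them not pregnant and 2 pregnant at E13.5 (day of embryonic development), with 1 animal per library and no transgene or drug in any group. Which area of cortex was dissected is not stated in the sources at hand. Levels are given as CPM, the UMIs (captured RNA molecules) of a gene scaled to the total UMIs of a cell type in a library. The mean and standard deviation (SD) over types are taken over the 4 libraries of both groups unless a group is named.

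GABA-A receptors are chloride channels made of 5 subunits around a pore, usually alpha, beta and a gamma or delta subunit. Gamma subunits go with receptors at synapses, whereas delta replaces gamma in receptors outside synapses that respond to low ambient GABA and give tonic inhibition. Delta is known to pair with alpha4 in forebrain neurons and with alpha1 in some interneurons, and alpha5 forms a further pool of receptors largely outside synapses. Neurosteroids such as allopregnanolone, made from progesterone, increase current through GABA-A receptors, and receptors with delta are known for a high sensitivity to them. Progesterone is high in pregnancy, which is why the delta and alpha4 genes were set beside pregnancy here.

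The members lie in 4 places of the genome. By the gene order of an earlier build (GRCm38), Gabrg1, Gabra2 and Gabra4 lie on chromosome 5 in a cluster with Gabrb1, Gabrg3 and Gabra5 lie next to each other on chromosome 7, Gabra3 lies on chromosome X beside Gabrq, and Gabrd lies on chromosome 4. In that annotation Gabra4 overlaps Gabrb1, Gabrd overlaps Cfap74, and Gabra5 also overlaps another gene. Whether UMIs were counted by strand is not stated there either, so reads of each overlapping pair may be shared and the levels of Gabra4, Gabra5 and Gabrd are uncertain to that extent.

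The promoters of the 3 members in the chromosome 5 cluster are shown because these neighbouring genes differed in part over cell types. Gabra2 was highest in astrocytes and upper-layer neurons, Gabra4 was found in neurons of most kinds and in astrocytes, and Gabrg1 in glia. Over the 17 types Gabra2 and Gabra4 were alike (Pearson r 0.806), whereas Gabrg1 was unlike Gabra2 (0.332) and Gabra4 (-0.124). Each window runs from 250 bases before to 50 bases after the annotated start, on the minus strand of GRCm38.p6 (RefSeq), written 5′ to 3′, with motif matches in capitals. They lie at chr5:71095800-71096099 for Gabra2, chr5:71658259-71658558 for Gabra4 and chr5:70842568-70842867 for Gabrg1.
Gabra2: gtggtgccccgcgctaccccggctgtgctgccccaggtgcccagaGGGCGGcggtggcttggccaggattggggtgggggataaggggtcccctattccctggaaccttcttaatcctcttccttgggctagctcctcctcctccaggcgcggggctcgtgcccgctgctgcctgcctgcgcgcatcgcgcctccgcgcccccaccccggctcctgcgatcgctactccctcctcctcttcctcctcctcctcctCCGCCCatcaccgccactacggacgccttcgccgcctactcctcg
Gabra4: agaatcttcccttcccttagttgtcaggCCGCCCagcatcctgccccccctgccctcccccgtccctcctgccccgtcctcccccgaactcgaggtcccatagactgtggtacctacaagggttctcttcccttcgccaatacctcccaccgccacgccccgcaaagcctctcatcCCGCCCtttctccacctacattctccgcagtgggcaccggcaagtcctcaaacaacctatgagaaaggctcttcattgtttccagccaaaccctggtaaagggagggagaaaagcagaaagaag
Gabrg1: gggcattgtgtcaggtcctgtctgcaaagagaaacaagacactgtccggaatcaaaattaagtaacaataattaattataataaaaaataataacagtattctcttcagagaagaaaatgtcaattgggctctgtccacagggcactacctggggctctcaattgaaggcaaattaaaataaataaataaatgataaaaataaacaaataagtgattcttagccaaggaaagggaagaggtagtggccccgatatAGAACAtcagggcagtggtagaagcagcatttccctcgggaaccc
The capitals mark GC boxes (GGGCGG on either strand) in the first 2 and a half-site of the progesterone and glucocorticoid receptors (AGAACA on either strand) in the third. GC made up 70.0% of the Gabra2 window, 58.7% of the Gabra4 window and 38.3% of the Gabrg1 window, beside a median of 52.7% over 32851 promoters. Gabra2 had a GC box on the plus strand of the window at -205 and one on the other strand at 5, counted from the start of the transcript, and Gabra4 had both of its boxes on the other strand, at -222 and -74. A GC box was present in 35.7% of all promoter windows and the half-site in 19.0%, and a match is a description of the letters and not a bound site. The motifs TATAAA (in 13.6% of all windows), CACGTG (7.15%), TGACGTCA (1.79%) and GCGTGGGCG (0.612%) were also searched on both strands and had no match in these 3 windows. Windows were found for 6 of the 7 members.

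After filters, 25033 of 26816 barcodes were kept, between 5949 and 6503 per library. The libraries held between 97875766 and 116860425 UMIs, and 109 barcodes occurred in more than 1 library. Nuclei were clustered without the 19 GABA-A subunit genes, and 17 cell types were named from markers, with each name meaning only that the clusters resemble that type. Excitatory types are called by layer and axon target: IT (intratelencephalic) cells stay within the telencephalon, ET (extratelencephalic) cells leave it, CT (corticothalamic) cells reach the thalamus, and NP (near-projecting) cells reach close by. All 7 astrocyte markers, all 7 microglia markers, all 6 of the Lamp5 list and 4 of the 5 detected Pvalb markers were highest in the type of that name, but none of 6 were for L6 IT, 1 of 4 for L5 IT, 2 of 6 for oligodendrocytes and 3 of 8 for L5 ET, so those names are the least certain. A further 1189 nuclei fell in clusters nearly limited to the pregnant libraries and were kept out of the named types.

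**Figure D1:**
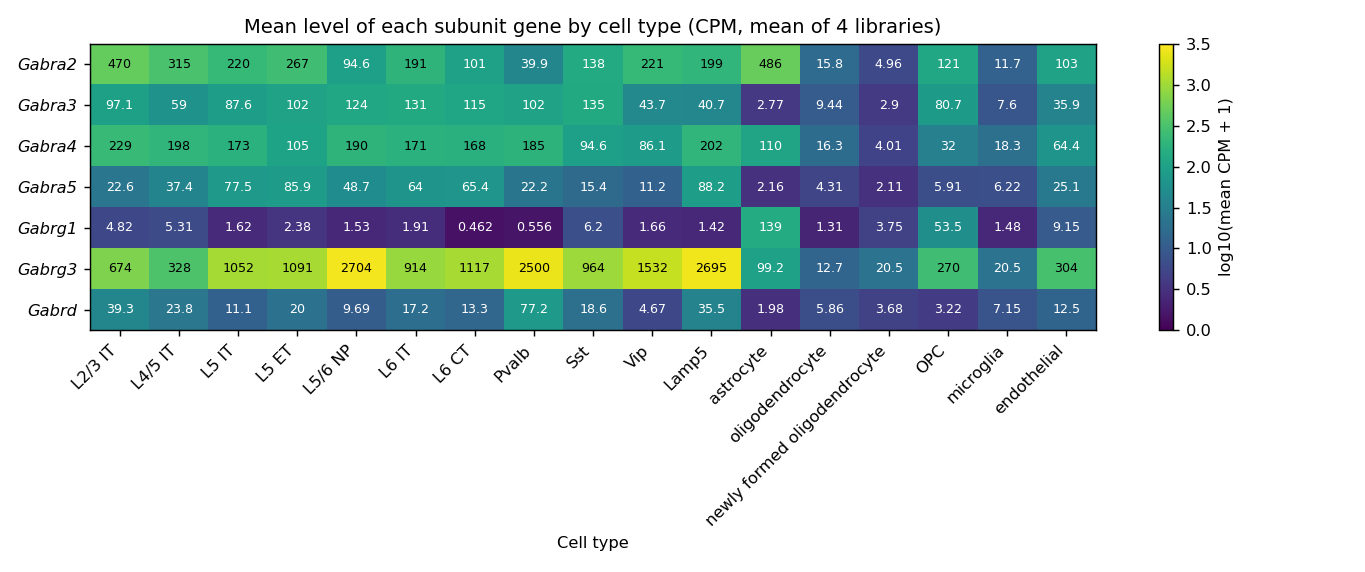
Mean level of each of the 7 genes (rows) in each of the 17 named cell types (columns), with the CPM over 4 libraries printed in each cell and log10(mean CPM + 1) as colour. Gabrg3 runs from 12.7 CPM in oligodendrocytes to 2704 CPM in L5/6 NP neurons, Gabrg1 is high in astrocytes and OPC, and Gabrd is highest in Pvalb neurons.

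Gabra2 encodes the alpha2 subunit, known from synapses on the initial segment of axons. It was highest in astrocytes (486.2 ± 46.8 CPM, SD, n = 4) and L2/3 IT neurons (469.9 ± 45.1), whose libraries overlapped and whose order turned without non-pregnant replicate 2. In L2/3 IT neurons the 4 libraries stood at 430.3 and 439.2 CPM (non-pregnant) and 528.6 and 481.5 CPM (pregnant), all above every library of the next type, L4/5 IT (315.4 ± 44.8 CPM). From the upper to the deepest layers Gabra2 stood lower, with 190.9 ± 13.52 CPM in L6 IT, 101.02 ± 8.53 in L6 CT and 94.6 ± 28.3 in L5/6 NP neurons. Interneurons differed from each other: Vip (221.2 ± 10.2 CPM) and Lamp5 (198.8 ± 12.5) neurons stood close to L5 IT neurons, whereas Pvalb neurons had 39.9 ± 4.74 CPM, below every library of every other neuron type. Oligodendrocytes, newly formed oligodendrocytes and microglia held 4.96 to 15.8 CPM, the lowest of all types.

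Gabra3, whose subunit is known in monoaminergic and deep-layer cortical neurons, had the flattest profile over neurons of the 4 alpha genes after Gabra4. It was highest in Sst (134.5 ± 4.24 CPM), L6 IT (130.6 ± 3.79), L5/6 NP (123.7 ± 9.27) and L6 CT neurons (115.1 ± 13.54), and in that order each type overlapped the next. It was lower in L4/5 IT (59.03 ± 4.38 CPM), Vip (43.7 ± 4.33) and Lamp5 neurons (40.7 ± 8.72). Among glia it was found in OPC (80.7 ± 7.80 CPM) and close to 0 in astrocytes (2.77 ± 3.08 CPM), so OPC and astrocytes, which shared Gabrg1, did not share Gabra3.

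Gabra4, the partner of delta in forebrain principal cells, was spread over neurons. L2/3 IT neurons were at the top with 219.6, 228.5, 231.1 and 235.5 CPM (228.7 ± 6.73; at the finer clustering the Lamp5 cluster was above them), followed by Lamp5 (202.3 ± 20.4), L4/5 IT (197.9 ± 19.4), L5/6 NP (190.4 ± 23.1) and Pvalb neurons (184.5 ± 21.8), each of which overlapped its neighbour in the order. L5 ET (104.6 ± 15.8 CPM), Sst (94.6 ± 14.4) and Vip neurons (86.1 ± 11.3) formed the low end, so the range over the 11 neuron types was narrower than for Gabra2. Astrocytes held 110.04 ± 12.1 CPM, OPC 32.04 ± 13.2 and microglia 18.3 ± 8.10.

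Gabra5 was higher in most deep-layer than in upper-layer excitatory types. It stood at 85.9 ± 12.3 CPM in L5 ET, 77.5 ± 6.09 in L5 IT, 65.4 ± 14.6 in L6 CT and 64.01 ± 9.71 in L6 IT neurons, and at 37.4 ± 5.46 in L4/5 IT and 22.6 ± 3.66 in L2/3 IT neurons. Every library of the first 4 types lay above every library of the last 2, but L5/6 NP neurons, at 53.98, 33.04, 50.6 and 57.1 CPM, overlapped L4/5 IT neurons. Among interneurons it was highest in Lamp5 neurons (88.2 ± 22.5 CPM, with 121.7 in non-pregnant replicate 2 and 72.8 to 79.9 in the others), beside 22.2 ± 2.46 in Pvalb, 15.4 ± 3.61 in Sst and 11.2 ± 3.44 in Vip neurons. Glia had 2.11 to 6.22 CPM.

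The gamma genes divided between glia and neurons. Gabrg1 stood at 154.0, 115.1, 136.7 and 151.4 CPM in astrocytes and 57.1, 38.1, 59.3 and 59.7 CPM in OPC, with the non-pregnant replicate 1 and 2 values first. All astrocyte libraries were above all OPC libraries, and all OPC libraries were above those of the other 15 types, where the mean was 9.15 CPM or less. In neurons the means were 0.462 to 6.20 CPM, beside 1.31 ± 1.05 CPM in oligodendrocytes and 3.75 ± 2.06 in newly formed oligodendrocytes.

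Gabrg3, a gamma subunit gene, was found in all neuron types, with a wide range among them. L5/6 NP neurons held 2889, 2570, 2685 and 2672 CPM, Lamp5 neurons 2762, 3026, 2487 and 2506, and Pvalb neurons 2309, 2436, 2611 and 2644. These types overlapped (Lamp5 was first in the order without non-pregnant replicate 1 or either pregnant replicate), and all their libraries were above those of Vip neurons (1532 ± 184 CPM). The other excitatory types of layers 5 and 6 and the Sst neurons lay between 913.6 and 1117 CPM and overlapped in order, and L2/3 IT (673.7 ± 30.8) and L4/5 IT neurons (327.8 ± 39.3) were lower with no overlap between them. OPC had 270.4 ± 37.2 CPM and astrocytes 99.2 ± 21.2.

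Gabrd, the delta subunit, was highest in Pvalb neurons, followed by L2/3 IT and Lamp5 neurons. Pvalb neurons held 83.7, 80.7, 61.9 and 82.6 CPM (77.2 ± 10.3), and no library of another named type reached the lowest of them. The Lamp5 type averages unlike cells, and at the finer clustering its Lamp5 cluster stood higher, near the Pvalb libraries (values below). L2/3 IT neurons held 40.1, 46.2, 30.9 and 40.1 CPM (39.3 ± 6.33), Lamp5 neurons 35.5 ± 9.43 and L4/5 IT neurons 23.8 ± 3.59. In all 4 of these types the lowest library was pregnant replicate 1. Deep excitatory types had 9.69 to 19.98 CPM and Sst neurons 18.6 ± 3.22, whereas Vip neurons held 4.67 ± 1.36 CPM, beside 7.15 ± 2.31 in microglia and 5.86 ± 2.33 in oligodendrocytes.

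**Figure D2:**
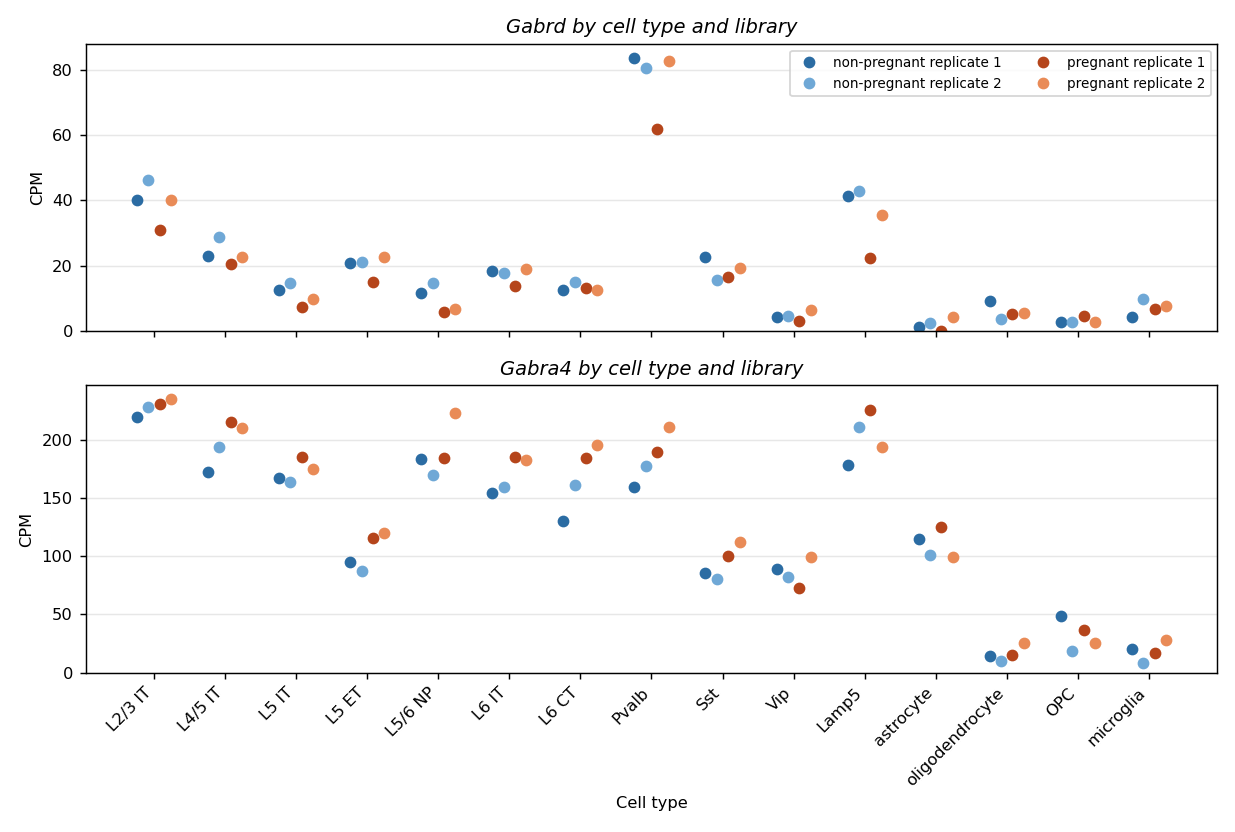
Levels of Gabrd (upper panel) and Gabra4 (lower panel) in CPM for each of the 15 tested cell types; each point is 1 library, coloured by group and replicate. Gabrd is at 61.9 to 83.7 CPM in Pvalb neurons and at 46.2 CPM or less in the other types, whereas Gabra4 is at 72.9 to 235.5 CPM in every neuron type. The Lamp5 points average unlike cells, and Gabrd is higher in the finer Lamp5 cluster.

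At a finer clustering (resolution 2) the named types came apart for some members and not for others. Among L4/5 IT neurons, Gabrg3 ran from 22.1 CPM in one cluster to 774.6 CPM in another, a 35.1-fold spread, while Gabra4 ran only from 178.3 to 216.3 CPM, a 1.21-fold spread. Gabrd went the other way from Gabrg3 in the 2 end clusters. Where Gabrg3 was lowest (1400 nuclei), Gabrd was at 38.2, 42.6, 33.2 and 39.99 CPM, and where Gabrg3 was highest (350 nuclei) it was at 15.2, 13.3, 10.1 and 10.3 CPM, with no overlap. Gabra5 sided with Gabrg3, at 87.6 ± 7.24 CPM in the cluster with the most Gabrg3 and 17.3 ± 3.05 in the one with the least. The L4/5 IT type was thus an average over cells with and without much Gabrg3, Gabra5 and Gabrd, but with alike Gabra4. The Lamp5 type divided into a cluster led by the Lamp5 list and one whose best list was Sncg, which marks a different class of interneurons. That second cluster scored nearly the same for Sncg (1.877) and Lamp5 (1.87), and 17.95% of it was removed as doublets, so its name is uncertain. The first held 3869 ± 368 CPM of Gabrg3, 145.8 ± 32.2 of Gabra5 and 59.4 ± 17.1 of Gabrd, and the second 1425 ± 113, 22.4 ± 4.06 and 9.48 ± 3.24, with no overlap between libraries for any of the 3 genes. Gabra2 was the reverse, at 107.03 ± 5.25 CPM in the Lamp5 cluster and 294.0 ± 25.8 in the Sncg cluster. The values given above for Lamp5 neurons are therefore an average over unlike cells.

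**Figure D3:**
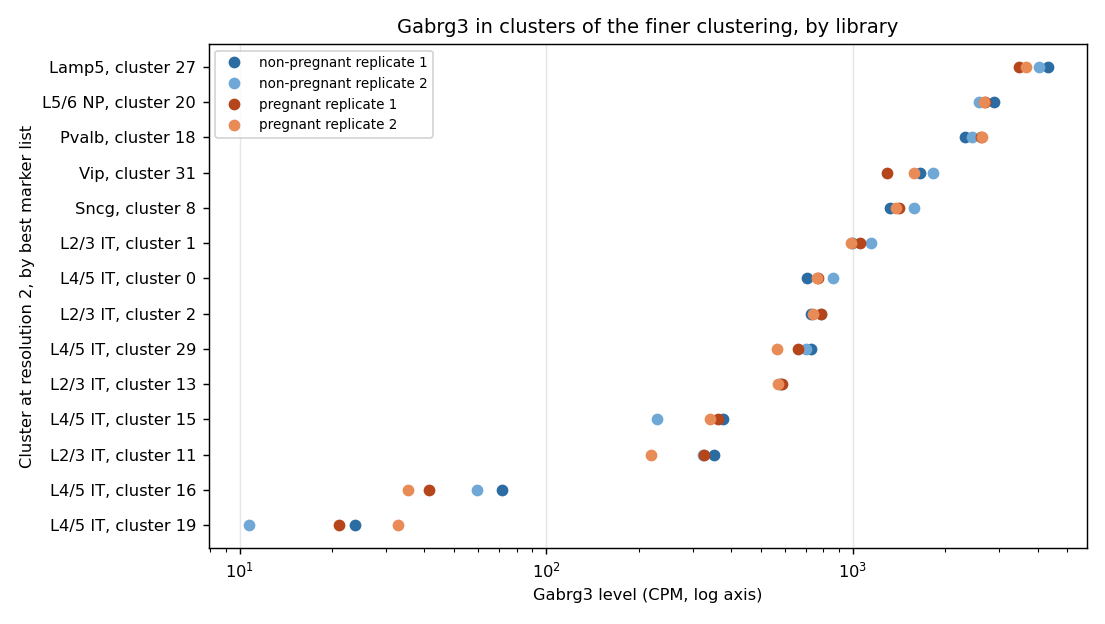
Level of Gabrg3 in CPM (log axis) in 14 clusters at resolution 2, named by their best marker list and ordered by mean; each point is 1 library, coloured by group and replicate. Clusters of L4/5 IT neurons have means from 22.1 to 774.6 CPM, and the Sncg and Lamp5 clusters 1425 and 3869 CPM.

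The make-up of the 7 genes within a type depends on the unit. By UMIs, Gabrg3 took the largest share in 13 of the 15 tested types, with 85.4% ± 0.782 of the members' UMIs in Pvalb, 85.2% ± 0.463 in L5/6 NP and 82.6% ± 1.26 in Lamp5 neurons (SD, n = 4). L4/5 IT neurons were nearly even, at 33.9% ± 3.25 Gabrg3 and 32.5% ± 2.38 Gabra2. The exceptions were astrocytes, where Gabra2 took 57.8% ± 5.01, Gabrg1 16.6% ± 2.39 and Gabrg3 11.8% ± 2.22, and oligodendrocytes, where Gabra4 led at a low level. The Gabrg3 gene spans 670.7 kb, beside 138.3 kb for Gabra2, 88.6 kb for Gabra4 and 13.1 kb for Gabrd, so the share of UMIs and the share per kb differ.

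Divided by gene length, Gabrg3 led in only 4 types, L5/6 NP, Sst, Vip and Lamp5 neurons. In Pvalb neurons Gabrd had 2.65% ± 0.434 of the UMIs but 46.3% ± 4.27 per kb, ahead of Gabrg3 (29.5% ± 2.69). In L2/3 IT neurons Gabra2 (31.8% ± 2.95 per kb) and Gabrd (28.0% ± 4.35) were close, and in L4/5 IT neurons Gabra2 (30.3% ± 2.86) and Gabra4 (29.7% ± 1.33) were. In Vip neurons Gabrg3 had 41.2% ± 1.999 and Gabrd 6.38% ± 1.60, so per kb Pvalb and Vip neurons stood at opposite ends of the neurons for delta. By UMIs the Gabrd share of Pvalb neurons overlapped that of L2/3 IT (2.58% ± 0.521) and L4/5 IT neurons (2.50% ± 0.581). Astrocytes kept Gabra2 (53.2% ± 4.61) and Gabrg1 (23.03% ± 3.11) on top. In microglia (55.5% ± 14.5) and oligodendrocytes (51.1% ± 9.43) the per kb share of Gabrd was as high as in Pvalb neurons, but at levels of 7.15 and 5.86 CPM and over 245 and 415 UMIs of all members. Neither scale is a count of receptors.

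**Figure D4:**
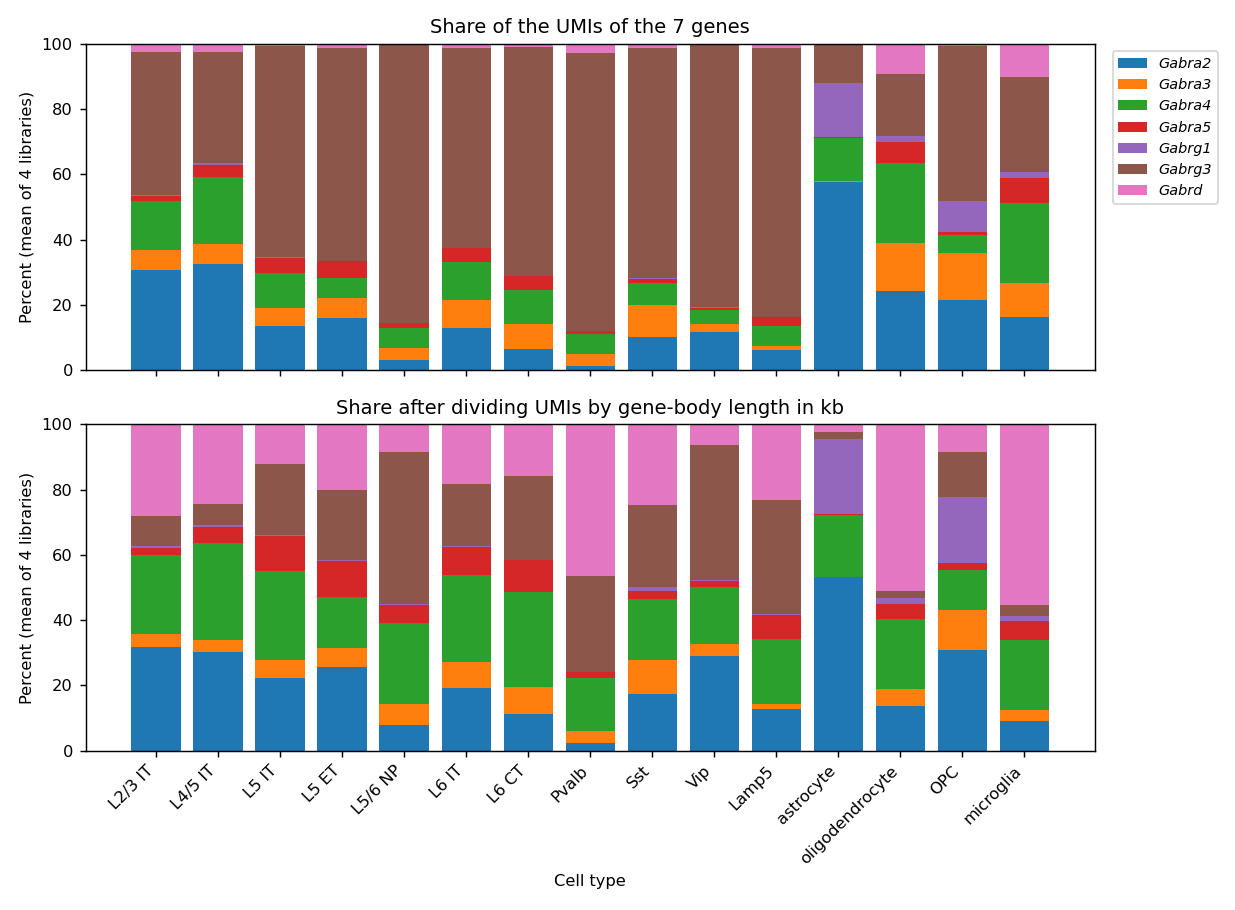
Share of each of the 7 genes in percent within each cell type, mean of 4 libraries, by UMIs and by UMIs per kb of gene length (stacked bars). Gabrg3 takes 85.4% of the members' UMIs in Pvalb neurons, but Gabrd takes 46.3% per kb there.

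Among neurons the ratio of Gabrd to Gabra4 was highest in Pvalb neurons, at 0.525 and 0.453 in non-pregnant and 0.326 and 0.391 in pregnant libraries. In microglia, where both genes were low, it ranged from 0.211 to 1.22. L2/3 IT neurons had 0.182, 0.202, 0.134 and 0.170, and L5/6 NP neurons 0.0642, 0.0857, 0.0311 and 0.0298. In all 3 types both pregnant libraries were below both non-pregnant ones, which is a description with no test. The same held in every other neuron type except Vip (0.05 and 0.0566 against 0.0429 and 0.0645), so it was not particular to these 3. All types share the same 4 animals, and the share of other gene pairs that separate in this way is not given. Thinned to 5000 UMIs per nucleus, both genes were seen in 18.8% ± 3.97 of Pvalb nuclei, beside 18.7% for the product of the 2 single shares. The share was 11.5% ± 2.32 in L2/3 IT, 10.9% in Lamp5, 7.04% in L4/5 IT and 0.385% in Vip neurons. It was 0 of 589 astrocytes, after 142 shallower nuclei had been left out. The upper limit for that share, 0.509%, treats the pooled nuclei as independent, so it does not cover the spread between animals. At 3000 UMIs, where microglia could be included (494 of them), Gabrd was found in 20.5% ± 2.97 of Pvalb nuclei and 1.76% ± 0.944 of microglia, and Gabra4 in 42.9% ± 6.35 and 6.59% ± 2.63. These shares cover nuclei with a captured UMI and not nuclei that express the gene.

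Genes with the most similar profile over the 17 types were sought among 10379 genes, by Pearson r of log2(mean CPM + 1). For Gabrd they were Rnf207 (0.866), Runx2 (0.861) and Ddx10 (0.838), lower than for any other member. Gabra4 was most like Cspp1 (0.967), Atp2b2 (0.964), a plasma membrane calcium pump, and Pgr (0.944), the progesterone receptor. Gabrg3 was most like Sh3rf3 (0.981), Dipk1b (0.956) and Atrnl1 (0.955), and Gabra3 like Runx1t1 (0.964), Atp2b3 (0.963) and Krt222 (0.962). Gabra5 was most like Adcy1 (0.944), Crocc (0.938) and Mfsd4a (0.928), and Gabra2 like Rgs7 (0.917), Baalc (0.914) and Lgi1 (0.907). Gabrg1 was most like Emx2os (0.943), Rfx4 (0.939) and Hes5 (0.935), the last of these known from astroglia. These are descriptions over types that share libraries and depth.

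Pregnant and non-pregnant libraries were compared in each of the 15 types with at least 50 nuclei per library. Of 105 pairs of a member and a type, 85 passed the filter on low counts, and 2 were called at adjusted p below 0.05 (edgeR's quasi-likelihood test, adjusted over all genes of the type). Before adjustment 18 of the 85 had p below 0.05, and DESeq2 called 4. Over all genes, unadjusted p below 0.05 ranged from 516 of 8844 in OPC to 2098 of 13692 in L5 ET neurons. The unadjusted counts here and below are to be read beside these, and the DESeq2 share over all genes is not given. The median log2 fold change (pregnant libraries over the others) was 0.06 for the 85 pairs, beside 0.00097 over all 179452 pairs of a gene and a type, of which 0.692% were called. The members' 2 calls were Gabra2 in L5 IT and Gabra4 in L5 ET neurons, in both cases higher in pregnancy. The labels do not give separate batches, and 2 animals per group set the spread.

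The share of all genes called was 1.34% in L5 IT and 3.04% in L5 ET neurons, the types with the members' calls. In the types where no member was called it was 1.66% in L5/6 NP, 1.04% in L6 CT, 0.82% in Pvalb, 0.574% in L6 IT, 0.549% in microglia, 0.482% in astrocytes, 0.163% in Vip, 0.0905% in OPC, 0.0816% in L4/5 IT, 0.0776% in L2/3 IT, 0.0692% in oligodendrocytes, 0.0673% in Sst and 0.0538% in Lamp5.

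In L5 IT neurons, Gabra2 was at 201.7 and 169.3 CPM in the non-pregnant and 256.0 and 254.4 CPM in the pregnant libraries. The groups did not overlap, and the log2 fold change was 0.48 (SE 0.11, adjusted p = 0.0218 by edgeR). The call was lost when the second non-pregnant animal (adjusted p = 0.184) or either pregnant animal (0.439 and 0.128) was left out. Gabra2 was also higher in both pregnant libraries of L4/5 IT (284.6 and 271.6 against 366.5 and 338.8 CPM, log2 0.32, adjusted p = 0.396) and Sst neurons (135.3 and 98.4 against 145.9 and 173.8 CPM, log2 0.46, adjusted p = 0.341). In Pvalb neurons it was lower in both (45.1 and 42.7 against 36.7 and 35.1 CPM, log2 -0.28, adjusted p = 0.550), and none of these 3 passed the edgeR test. The pregnant libraries of L5/6 NP neurons were far apart for Gabra2, at 120.3 and 54.4 CPM beside 98.7 and 104.9 in the non-pregnant ones.

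In L5 ET neurons, Gabra4 was at 95.5 and 87.2 CPM in the non-pregnant and 116.1 and 119.6 CPM in the pregnant libraries. The groups did not overlap, and the log2 fold change was 0.40 (SE 0.10, adjusted p = 0.0254 by edgeR). The call was lost with DESeq2 (adjusted p = 0.158) and when the second non-pregnant animal (0.0609) or the first (0.337) or second (0.158) pregnant animal was left out. With equal numbers of nuclei per fine cluster it was lost too (0.0775), at a log2 fold change of 0.40 as before.

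Other genes were measured beside these calls. In L5 ET neurons, 2 of 11 genes known to differ between cortical areas rose by edgeR, Tshz2 (65.6 and 90.6 against 364.2 and 535.8 CPM) and Slc17a6 (1.28 and 1.28 against 6.35 and 5.84 CPM), while the median log2 fold change of the list's 6 tested genes was 0.10. The summed level of the list was 212.7 and 241.6 CPM against 502.8 and 695.4, most of it Tshz2 in the pregnant libraries. In L5 IT neurons none of the list was called by edgeR, and its sum was 226.1, 228.2, 228.5 and 304.2 CPM. The sum of 6 inhibitory markers in L5 ET neurons was 10.8 and 7.02 against 35.4 and 46.2 CPM, all far below the level in inhibitory types. Haemoglobin genes and Alas2, 5 red blood cell genes, summed to 9.65 and 10.95 against 21.03 and 18.5 CPM in L5 IT and to 6.96 and 8.93 against 15.6 and 10.49 CPM in L5 ET neurons. The part of these in the 2 calls was not tested. With the dissected area not given, area and pregnancy cannot be told apart.

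The log2 fold change of Gabra4 was above 0 in all 15 types (14 with RLE size factors), from 0.00 to 0.70 (median 0.22). Of these types, 5 were at unadjusted p below 0.05 and 1 was called in edgeR. All types share the same 4 animals, so these signs are not 15 separate observations. The 2 highest values, 0.70 and 0.66, were in microglia and oligodendrocytes, where Gabra4 was low (18.3 and 16.3 CPM). In Pvalb neurons it was at 159.3 and 177.9 CPM against 189.6 and 211.3 (log2 0.24, adjusted p = 0.288), and in L6 CT neurons at 130.6 and 161.5 against 184.6 and 195.3 (log2 0.38, adjusted p = 0.184). In L2/3 IT neurons, where the gene was highest, the log2 fold change was 0.02 ± 0.08 (SE). The nuclei of the upper-layer types were spread unevenly over their clusters: one L2/3 IT cluster held 148 and 2 nuclei in the non-pregnant and 354 and 295 in the pregnant libraries, and one L4/5 IT cluster 546 and 178 against 466 and 381. Tested cluster by cluster, none of the 42 values of the members in these 2 types was called by edgeR, with 13 at unadjusted p below 0.05. The part of this unevenness in the values within these types was not tested further.

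The log2 fold change of Gabrd was below 0 in all 10 types where the gene passed the filter, also with RLE size factors, from -1.05 to -0.08 (median -0.24), and none was called by edgeR or DESeq2, with 4 of the 10 at unadjusted p below 0.05 in edgeR. In L5/6 NP neurons it was at 11.8 and 14.6 CPM in non-pregnant and 5.73 and 6.66 CPM in pregnant libraries (log2 -1.05, adjusted p = 0.323), and in L5 IT neurons at 12.5 and 14.7 against 7.43 and 9.78 (log2 -0.65, adjusted p = 0.225). The pregnant values of both types lay within the range of the microglia libraries (4.32 to 9.93 CPM), a level that free RNA may reach, so these 2 changes are near the floor. In L2/3 IT neurons pregnant replicate 2 (40.1 CPM) stood at the level of non-pregnant replicate 1 (40.1), and in Pvalb neurons it stood between the non-pregnant libraries (82.6 beside 83.7 and 80.7). These 10 types share the same 4 animals, so their signs are not separate observations. Pregnant replicate 1 had the lowest level in 8 of the 10 types. Without that library the log2 fold change was below 0 in 9 of 11 types.

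The other members were mixed. Gabrg3 was higher in 10 types and lower in 5, with none called by edgeR and 2 at unadjusted p below 0.05. Its smallest adjusted p was in L6 CT neurons, where it was at 1049 and 821.7 CPM against 1315 and 1283 (log2 0.49, adjusted p = 0.0810 by edgeR and 0.0181 by DESeq2). In Vip, Lamp5 and Sst neurons both pregnant libraries were below both non-pregnant ones, with log2 values of -0.26, -0.20 and -0.09. Gabra3 was higher in 5 and lower in 8 of 13 types, with none at unadjusted p below 0.05, and Gabra5 higher in 8 and lower in 3 of 11, with 1. Gabrg1 passed the filter in 6 types and was higher in 5, with 2 at unadjusted p below 0.05 in L2/3 IT (3.35 and 2.39 against 7.94 and 5.61 CPM, log2 1.20) and L4/5 IT neurons (3.76 and 1.56 against 9.13 and 6.78 CPM, log2 1.60). DESeq2 called both (adjusted p = 0.0244 and 0.0110), edgeR neither (0.217 and 0.505). In astrocytes, where Gabrg1 was highest, its log2 fold change was 0.09 ± 0.15 (SE, adjusted p = 0.980).

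**Figure D5:**
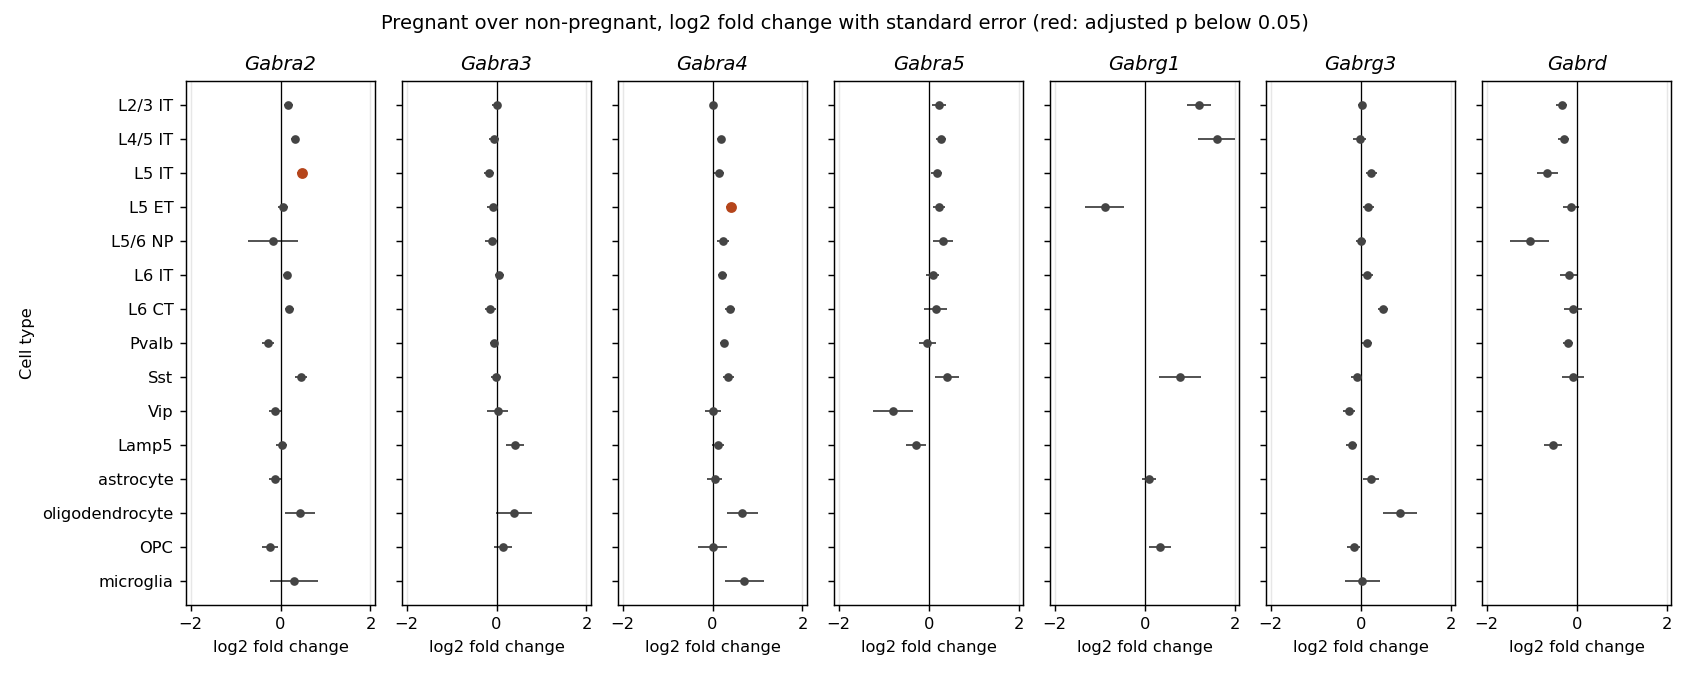
Log2 fold change (pregnant libraries over the others) with its standard error for each gene and cell type that passed the filter (edgeR; 2 libraries per group), 1 panel per gene. Gabra4 lies at or above 0 in all 15 types (14 with RLE size factors) and Gabrd below 0 in all 10. The types share the same 4 animals, so the signs are not separate observations. Red points mark the 2 pairs that were called.

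Summed over all nuclei, 1 member was called, Gabrg1, at 4.63 and 3.53 CPM against 7.22 and 7.02 (log2 0.80, SE 0.15, adjusted p = 0.0390 by edgeR), where 1.34% of all genes were called and DESeq2 called 2 members. In such a sum, fewer nuclei of a type and less RNA per nucleus cannot be told apart. Kept astrocytes numbered 129 and 144 in non-pregnant and 242 and 216 in pregnant libraries. The sum also held the 1189 nuclei of the clusters nearly limited to the pregnant libraries. A cluster of low depth, with 37 and 33 nuclei in the non-pregnant and 108 and 412 in the pregnant libraries, was part of it too. With equal numbers of nuclei per named type, the log2 fold change of Gabrg1 was 0.67 (adjusted p = 0.276 by edgeR) and the call was lost. That setting held 4484 nuclei per library and also left out all nuclei outside the named types, so the 2 changes cannot be told apart. Without pregnant replicate 1 or 2 the log2 fold change was 0.73 or 0.86, and the call was lost in each. Gabrd over all nuclei was at 29.2 and 33.1 CPM against 21.3 and 27.5 (log2 -0.37, adjusted p = 0.165).

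No member was called by edgeR in the sum of excitatory neurons, where 0.996% of all genes were, with 4 at unadjusted p below 0.05, and DESeq2 called 1, Gabrg1. None was called in the sum of inhibitory neurons, where 0.313% of all genes were, with 2 at unadjusted p below 0.05 and 0 by DESeq2. In the inhibitory sum Gabra4 was at 136.6 and 148.4 CPM against 160.5 and 163.6 (log2 0.18, adjusted p = 0.535) and Gabrd at 48.03 and 48.1 against 36.1 and 43.5 (log2 -0.27, adjusted p = 0.444). Neither of these partner genes passed the test in either class.

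The pregnancy effect was also compared between the 2 classes by an interaction term (animals entered as blocks), where 1.31% of all genes were called. No member was called by edgeR, and 2 had unadjusted p below 0.05. Gabrg3 differed by -0.39 (inhibitory minus excitatory, SE 0.09, adjusted p = 0.0789), with 694.4 and 610.6 against 883.6 and 787.3 CPM in excitatory and 1999 and 2111 against 1992 and 1958 CPM in inhibitory neurons. The make-up of types can move these sums. L2/3 IT nuclei numbered 1808 and 1707 against 1132 and 1376, and L5 ET nuclei 202 and 124 against 301 and 250. Within types, its log2 fold change was 0.03 in L2/3 IT, -0.02 in L4/5 IT and 0.00 to 0.49 in the deeper excitatory types. The part of make-up in the difference was not tested. Gabra4 differed by 0.14 (SE 0.06, adjusted p = 0.475).

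Other genes of GABA signalling were counted over the same 15 types, with lists chosen for their function. Of the 12 other GABA-A subunits, 6 could be tested in any type, and over 76 tests 2 rose and 0 fell by edgeR (DESeq2 called 3), with a median log2 fold change of 0.16. Gabrb1, the beta subunit gene that overlaps Gabra4, rose in Pvalb neurons from 316.1 and 282.6 to 441.7 and 388.6 CPM (log2 0.48, SE 0.10, adjusted p = 0.0057).

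Among 18 genes for anchoring and traffic of the receptor, 1 of 250 tests rose and 0 fell, Insyn2a of inhibitory synapses in L5 ET neurons (24.0 and 14.7 against 34.3 and 31.2 CPM, adjusted p = 0.0234 by edgeR). Among GABA-B receptors and their partners, 5 of 91 tests rose and 0 fell, all in the potassium channel genes Kcnj3 (L5 IT, L5 ET, L6 IT and L6 CT) and Kcnj6 (Pvalb). Kcnj3 was at 384.0 and 470.6 CPM against 781.7 and 682.4 in L6 CT neurons (log2 0.79, adjusted p = 0.0255 by edgeR). Over the 15 types none of the genes for GABA synthesis, loading, uptake and breakdown (91 tests, 14 at unadjusted p below 0.05), for chloride transport (89 tests, 12) or for neurosteroid synthesis (28 tests, 3) was called by edgeR or DESeq2. Abat, the enzyme that breaks down GABA, rose in the excitatory sum from 15.4 and 16.3 to 22.05 and 23.2 CPM (log2 0.51, adjusted p = 0.0379), and less so in inhibitory neurons (interaction -0.47, adjusted p = 0.0099, edgeR). Of 77 tests of the genes for cortical area, 8 rose and 0 fell. Of these, 6 were Tshz2, in L4/5 IT, L5 ET, L6 IT and Vip neurons, astrocytes and oligodendrocytes, and the others were Slc17a6 in L5 ET and Lmo4 in L5/6 NP neurons. Tshz2 is also on the L5/6 NP marker list and was a leading gene of the clusters nearly limited to the pregnant libraries. Over all nuclei it was at 68.1 and 48.4 against 372.0 and 373.0 CPM. In astrocytes it was at 2.55 and 4.00 against 17.0 and 19.1 CPM, and free RNA was not subtracted. The part of free RNA in the 6 rises was not tested.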

How the data were processed

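Nuclei were isolated on ice with actinomycin D and profiled with 10x GEM-X 3' chemistry, about 8000 targeted per animal, per the labels' protocols. The deposited matrices hold UMI counts, made by the authors with Cell Ranger 10.0.0 on GRCm39, per the submitters' processing notes. UMIs were not scaled to length, and free RNA was not subtracted.

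Nuclei with under 500 genes or over 5% mitochondrial UMIs were left out, as was the 5% with the highest doublet score in each library (2 simulated doublets per nucleus, 60 neighbours). Scanpy 1.11.5 clustered the rest (2000 variable genes without GABA-A subunits, 40 components, 20 neighbours, Leiden resolution 1; 29 clusters, 40 at resolution 2). Names came from 31 marker lists and needed 3 detected markers; the thresholds, and the 100 CPM added before leading genes were ranked (which let the microglia clusters be named), were chosen once the clusters were known. UMIs were summed per library and type and tested with edgeR 4.0.16 (quasi-likelihood, robust, TMM, filterByExpr with a minimum count of 10) with Benjamini-Hochberg adjustment within a type; the script was tested on simulated counts. Over groups, each of the 4 libraries is 1 animal. DESeq2 1.42.0, RLE size factors, no filter, other doublet, clustering and make-up choices and leaving out replicates were the alternatives. An exact permutation test over 2 against 2 animals could not reach 0.05 and was not used.

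All 7 members are named in every type. From other lists, at most 4 genes with the smallest adjusted p were taken, and for likeness the 3 genes with the highest r among genes with at least 20 CPM in 1 type, leaving out predicted genes. Some genes that this rule takes are counted but not reported here by name. The members and lists were chosen with earlier results of these data known. Replicate numbers did not pair the animals (r of same-numbered deviations -0.11 to 0.07). Gene lengths and order came from GRCm38.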

Additional observations from a re-analysis of the deposited data

Results flagged for a closer look

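3 differences were singled out because both pregnant libraries lay above both non-pregnant ones in one cell type and below both in another. None of these differences between types was itself tested. With 2 libraries per group, libraries can separate without any effect. The share of all genes that separate in this way is not given here, so the counts below do not show that the pattern is unusual. Gabra2 was higher in L5 IT neurons (log2 0.48) and lower in Pvalb neurons (-0.28), a difference of 0.76. Its libraries separated upward in 6 and downward in 3 of the types looked at, which were those with a mean of at least 20 CPM. Gabrg3 was higher in L6 CT neurons (0.49) and lower in Vip neurons (-0.26), a difference of 0.75, with 4 types separated upward and 3 downward. Gabra3 was higher in Lamp5 neurons (0.42) and lower in L5 IT neurons (-0.18), a difference of 0.59, with 3 types upward and 2 downward. Of these 6 values, only that of Gabra2 in L5 IT neurons passed the edgeR test across all genes. The Lamp5 type held clusters with unlike levels of Gabrg3 and Gabra2.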

How the results depend on the processing

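The 2 calls over cell types became 4 with DESeq2, 8 without a filter, 5 with the clusters nearly limited to pregnant libraries added and 1 with equal nuclei per fine cluster, and 0 to 12 when 1 library was left out (12 without non-pregnant replicate 1, 0 without pregnant replicate 2); the group left with 1 library was then assumed to vary like the other. The 1 call in the sums became 3 with DESeq2, 3 without a filter and 0 with equal nuclei, and 0 to 7 with 1 library left out. The 0 calls for the difference between classes became 2 without a filter and 0 to 2 with 1 library left out. With the replicate number as a block, the counts were 6 over types and 6 in the sums, though the numbers do not pair the animals. The share of all genes called under each alternative is not given here, so none of these counts shows a trait particular to the members. Of the 5 calls with the limited clusters added, those of Gabra2, Gabra3 and Gabrg3 in L5/6 NP neurons compare unlike cells, as described below. Gabrg3 had the largest share in 13 types by UMIs and in 4 per kb. Pvalb nuclei with both Gabra4 and Gabrd were 18.8% at 5000 UMIs, 8.93% at 3000, 31.3% at 8000 and 56.0% without thinning.

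Results that changed sign were small or in L5/6 NP, L6 CT and Lamp5 neurons, and the cause was not tested. In L5/6 NP neurons, Gabra2 was at log2 0.048 without doublet removal, 0.10 with equal nuclei, 0.89 (adjusted p = 2.22e-04, edgeR) with the limited clusters added and -0.90 to 0.31 with 1 library left out (lowest without pregnant replicate 1, highest without pregnant replicate 2). Gabra3 there was at 0.040 with equal nuclei and -0.24 to 0.0078 with 1 library left out, above 0 only without pregnant replicate 2. Gabrg3 there was at -0.0084 without doublet removal and -0.064 to 0.065 with 1 library left out. With the limited clusters added it was at -1.40 (adjusted p = 2.04e-06, edgeR). Adding them took the L5/6 NP nuclei of the pregnant libraries from 136 and 130 to 501 and 508, beside 105 and 66 in the non-pregnant ones. The values of that setting thus compare unlike cells and cannot show a difference within L5/6 NP neurons. Gabra5 ranged from -0.18 to 0.55 in L6 CT and from -0.63 to 0.15 in Lamp5 neurons, with the sign turned only without non-pregnant replicate 2. Among the other values for single genes, 202 kept direction and side of the threshold, 51 passed it and 11 lost it. These values cover only members and units called in at least 1 setting, so passes are built into the choice and the tally does not measure stability. All 11 losses fell on the calls of the main setting, which were Gabra2 in L5 IT, Gabra4 in L5 ET and Gabrg1 over all nuclei. The log2 fold change of Gabra4 was above 0 in 11 to 15 of 15 types, and that of Gabrd below 0 in 9 to 12 types, of 10 to 15 tested. The highest type of each member held for 5 to 7 of the 7 members over the alternatives run. Testing each cluster of L2/3 IT and L4/5 IT neurons alone, an alternative chosen after seeing the data, called 0 of 42 values. The 2 animals per group limit every comparison.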

Other observations

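The clusters nearly limited to pregnant libraries, which were outside the named types, carried the members too. One with 223 and 152 nuclei in the pregnant libraries held Gabrg3 at 269 and 264 CPM, Gabra2 at 246 and 223 and Gabra4 at 213 and 215. Another with 142 and 226 nuclei held Gabrg3 at 297 and 342 CPM and Gabra5 at 103 and 83. These values come from too few non-pregnant nuclei for a comparison.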
